A study of Mus musculus with 9 samples.

Results

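The 36 genes described here encode the working parts of the lysosome in mouse lung. They comprise 15 soluble acid hydrolases and activator proteins, 5 lysosomal membrane proteins, 13 subunits or accessory proteins of the vacuolar proton pump (V-ATPase) and 3 transcription factors of the MiT family, with cathepsins left out. A gene entered when at least 1 probe set carried its symbol alone in the platform annotation. This held for 35 of the 36, out of 18194 genes with such a probe set on the array. The 36th, Atp6v0c, is unnamed in that annotation and not analysed here. All 35 passed the filter on dim signals, as did 11984 genes of the whole array, and 65 of their 81 probe sets did.

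The lungs came from 9 female C57BL/6 mice aged 14 weeks, 3 per group with 1 array per mouse. Each mouse had received a replication-deficient adenovirus into the trachea 14 days earlier, which carried mouse IL-4 (AdV-IL4), the mouse splice variant IL-4d2 (AdV-IL4d2) or no cytokine (AdV-NULL). All groups therefore share the viral infection, and a lung without virus was not analysed here. Lung markers were present in all 9 arrays, such as the surfactant gene Sftpc, whose signal ran from 33790 to 38907 in AdV-IL4 lungs, from 29900 to 31486 in AdV-IL4d2 lungs and from 25944 to 41165 in AdV-NULL lungs. The comparisons ask what differed between lungs with each cytokine virus and lungs with the empty virus, and between lungs with either cytokine virus.

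Lysosomes break down proteins, lipids, glycans and nucleic acids with enzymes that work at low pH. The V-ATPase keeps that pH by pumping protons: its V1 sector hydrolyses ATP in the cytosol and its V0 sector carries the protons across the membrane. TFEB, MITF and TFEC are basic helix-loop-helix leucine zipper proteins that bind E-box sequences, and TFEB and MITF are known to switch on many lysosomal genes. Macrophages hold more of this machinery than most lung cells, and IL-4 is known to drive macrophages into the alternatively activated state.

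Of the 35 measured genes, 14 rose in AdV-IL4 lungs relative to AdV-NULL lungs and 0 fell on the authors' scaling, although 12 of the 14 log2 differences turned negative when the arrays were scaled to the added poly-A transcripts and 3 when scaled to the added hybridisation controls. With hybridisation controls 2 of the 35 were called higher (Psap and Tfec), 2 lower and 23 had negative values, and with poly-A controls 1 was called higher (Tfec), 17 lower and 33 had negative values, against 6 negative on the authors' scaling. The test was limma's moderated test on log2(signal + 16), with Benjamini-Hochberg adjustment over all 23824 tested probe sets and a threshold of 0.05. Of the 11984 genes tested, 6.34% rose and 6.63% fell by the same rule. The median log2 difference of the 35 genes was 0.32, against −0.02 for all tested genes, and the values ran from −0.11 to 1.68. Positive values were found for 29 of the 35 genes, beside 47.4% of all genes, and 23 had an unadjusted p under 0.05, beside 28.9%. In AdV-IL4d2 lungs 0 of the 35 genes passed the test against AdV-NULL, where 0.859% of all genes rose and 0.401% fell. At an unadjusted p under 0.05 limma counted 5 of the 35 in that comparison, beside 15.5% of all genes, and the median log2 difference was 0.04 against 0.00. Tested directly, 5 of the 35 genes were higher in AdV-IL4 than in AdV-IL4d2 lungs and 0 were lower, where 1.18% of all genes were higher and 1.05% lower. Their median log2 difference there was 0.26, against −0.02 for all genes. Both comparisons with AdV-NULL use the same 3 control lungs, and AdV-IL4 against AdV-IL4d2 uses the same AdV-IL4 lungs again.

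**Figure D1:**
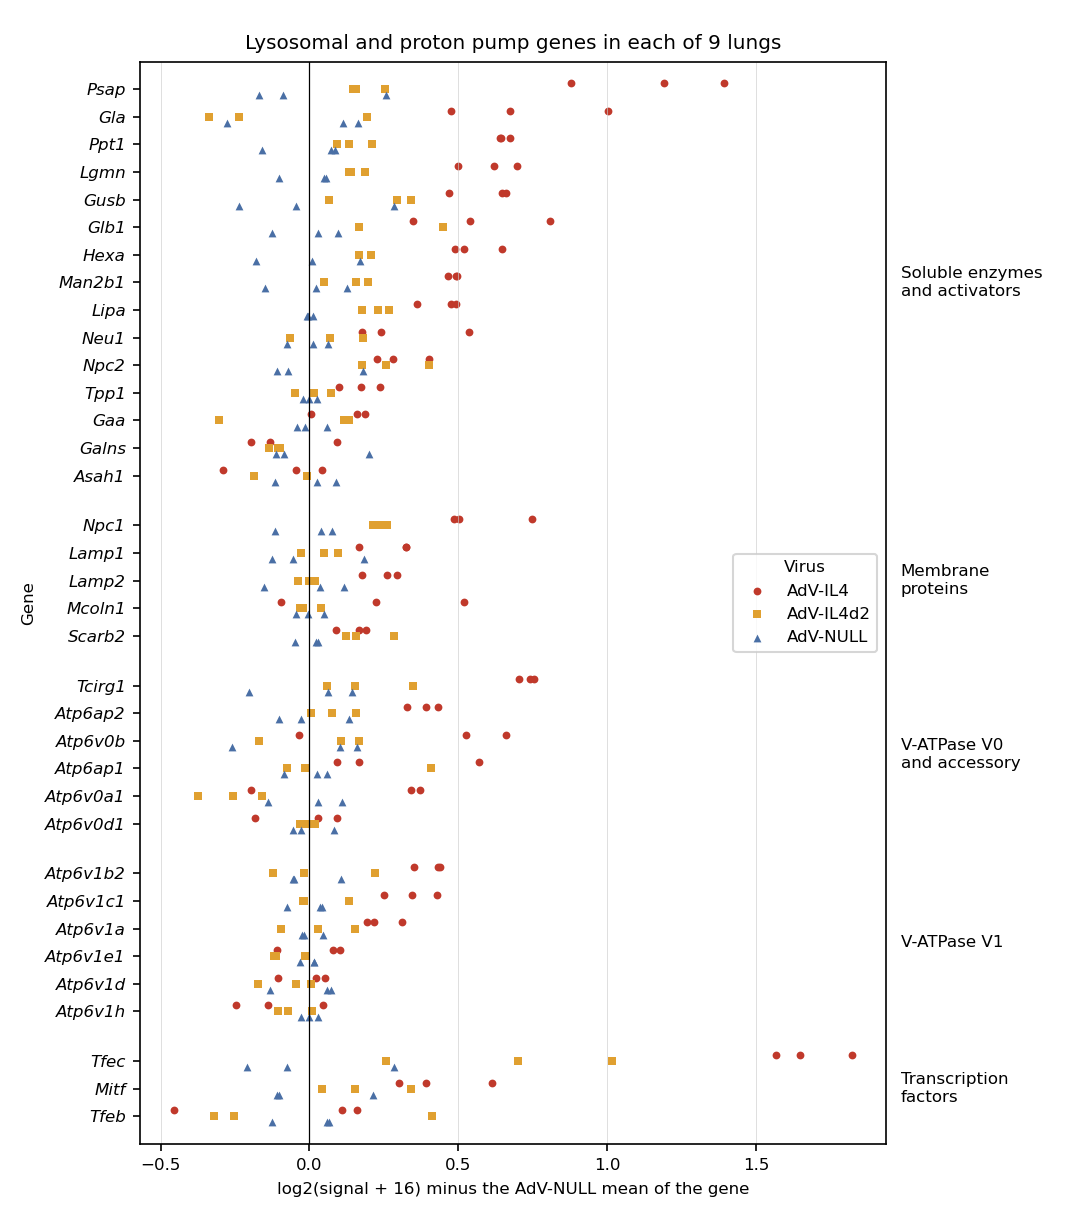
Each point is 1 lung. The x axis gives log2(signal + 16) minus the mean of the 3 AdV-NULL lungs for that gene, on the authors' scaling, and the y axis gives the 35 genes by role. Circles (AdV-IL4) lie right of 0 for most soluble enzymes and for Tfec, while squares (AdV-IL4d2) and triangles (AdV-NULL) stay closer to 0. Under scaling to poly-A controls 12 of the 14 called genes fall left of 0.

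Seen lung by lung, the median gene lay 0.36, 0.39 and 0.25 above the AdV-NULL mean (log2) in the 3 AdV-IL4 lungs. It lay 0.04, 0.11 and 0.07 above it in AdV-IL4d2 lungs, and at −0.05, 0.06 and 0.02 in the AdV-NULL lungs themselves. Each AdV-IL4 lung thus stood above each of the other 6, and AdV-IL4d2 and AdV-NULL lungs overlapped. In 23 of the 35 genes all 3 AdV-IL4 signals were above all 3 AdV-NULL signals, beside 14.9% of all genes. The summed signal of the 35 genes ran from 162166 to 179348 in AdV-IL4 lungs, from 137803 to 147649 in AdV-IL4d2 lungs and from 125411 to 141748 in AdV-NULL lungs. Bright genes weigh most in this sum, namely Npc2, Psap, Lamp1 and Lamp2, of which only Psap was called. These are whole lungs, in which more cells of a type and more RNA per cell cannot be told apart.

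Several measured facts moved with these groups. Markers of macrophages were higher in AdV-IL4 lungs for 11 of 19 tested genes, beside 6.34% of all genes. Their median log2 difference was 0.61, and Itgam was below the filter. Summed macrophage marker signal ran from 78095 to 85151 in AdV-IL4 lungs, from 62523 to 70828 in AdV-IL4d2 lungs and from 49709 to 69978 in AdV-NULL lungs. In AdV-IL4d2 lungs 4 of the 19 rose, namely C1qa, C1qb, C1qc and Ms4a7, beside 0.859% of all genes. The median log2 difference of the 19 was 0.36 there. With 1 array left out, the AdV-IL4 calls of Mertk and Mrc1 were kept in 1 and 4 of 9 fits, and the AdV-IL4d2 calls of C1qb and C1qc were lost without any 1 AdV-IL4d2 lung, among others (adjusted p up to 0.127). Ms4a7, a membrane protein of macrophages, rose 2.71-fold with AdV-IL4 and 3.14-fold with AdV-IL4d2. Itgax, an integrin of alveolar macrophages and dendritic cells, rose 3.01-fold with AdV-IL4 (limma adjusted p = 0.000103) and was 1.08-fold with AdV-IL4d2 (adjusted p = 0.815). Of 10 markers of resident alveolar macrophages, 1 rose with AdV-IL4 (Chil3) and 3 fell (Marco, Cidec and Fabp1), and Pparg was below the filter. Of 8 markers of multinucleate giant cells and osteoclasts, 5 rose with AdV-IL4 and 0 with AdV-IL4d2. Among those that rose were Trem2, Acp5 and Atp6v0d2. Acp5 and Atp6v0d2 are also counted below among the further lysosomal genes, so these lists overlap. The calls of Ctsk and Itgb3 were kept in 2 and 1 of 9 fits, while Ocstamp, Oscar, Calcr and Clec5a were below the filter. With 1 array left out 3 to 4 genes of this list were called. Their summed signal ran from 5314 to 6845 in AdV-IL4 lungs, from 3249 to 3812 in AdV-IL4d2 lungs and from 3129 to 4165 in AdV-NULL lungs. The 3′ over 5′ signal ratio of Gapdh, a measure of RNA integrity, was 1.71 ± 0.143 in AdV-IL4 lungs, 1.46 ± 0.112 in AdV-IL4d2 lungs and 1.28 ± 0.284 in AdV-NULL lungs (SD, n = 3 each), with an exact two-sided permutation p = 0.1 for AdV-IL4 against AdV-NULL, the smallest that 3 against 3 can give. The same ratio of Actb was 3.23 ± 0.486 in AdV-IL4 lungs, 2.58 ± 0.226 in AdV-IL4d2 lungs and 2.65 ± 0.324 in AdV-NULL lungs. Its exact permutation p was 0.3 for AdV-IL4 against AdV-NULL. Heart and skeletal muscle genes were lower in AdV-IL4 lungs for 10 of 12 tested genes, with negative values in all 12 and a median log2 difference of −2.45. Their summed signal ran from 2163 to 9245 in AdV-IL4 lungs, from 7801 to 26601 in AdV-IL4d2 lungs and from 19035 to 92165 in AdV-NULL lungs. Their mean signal was highest in AdV-NULL mouse 1 and lowest in AdV-IL4 mouse 2, and with any 1 of AdV-NULL mouse 1, AdV-NULL mouse 2 and AdV-IL4 mouse 2 left out 2 muscle genes were called lower in place of 10. Markers of B and plasma cells rose with AdV-IL4 in 7 of 11 genes and fell in 1, and with AdV-IL4d2 3 of the 11 rose. Of 10 smooth muscle and fibroblast genes 5 fell and 2 rose with AdV-IL4. Alveolar type 2 cell markers rose with AdV-IL4 in 4 of 11 genes (median log2 difference 0.28), and in 0 without AdV-NULL mouse 1. Club and ciliated cell markers fell in 4 of 11 genes, and neutrophil and mast cell markers in 2 of 5. Among 13 alveolar type 1 and endothelial genes 2 rose and 4 fell, while 0 of 9 T and NK cell genes were called. Without both AdV-NULL mouse 1 and AdV-IL4 mouse 2, 1 of 11 muscle genes was called lower, 4 of 11 B and plasma cell genes higher, and 1 of 7 giant cell genes and 8 of 19 macrophage genes higher. With the same arrays left out 7 of the 35 genes were called in AdV-IL4 against AdV-NULL in place of 14, and 2 in place of 5 in AdV-IL4 against AdV-IL4d2. The calls over all genes also fell in both comparisons, and their counts are given in the last section. The part of cell content, RNA integrity and these arrays in the lysosomal result was not otherwise tested. Il4 itself had a mean signal of 338 ± 39.1 in AdV-IL4 lungs, 872 ± 343 in AdV-IL4d2 lungs and 43.5 ± 27.9 in AdV-NULL lungs, and whether its probe set reads both splice forms equally was not tested.

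Among the transcription factors, Tfec had the largest difference of the 35 genes and Tfeb did not change detectably. Tfec is expressed mainly in macrophages and osteoclasts, and IL-4 is known to induce it through STAT6 in mouse bone marrow macrophages. Its signal was 477, 421 and 397 in AdV-IL4 lungs, 151, 210 and 266 in AdV-IL4d2 lungs, and 105, 154 and 116 in AdV-NULL lungs. All AdV-IL4 lungs stood above all other lungs, the AdV-IL4d2 lungs overlapped the AdV-NULL lungs, and the AdV-NULL signals were below the median of their own arrays. Tfec passed the filter on dim signals through 3 AdV-IL4 and 2 AdV-IL4d2 arrays, so its fold is measured against dim signals. Tfec rose 3.20-fold with AdV-IL4 (log2 difference 1.68 ± 0.22, SE, limma adjusted p = 0.000731), a call that held with any 1 of the 9 arrays left out and without the filter (adjusted p = 0.00199). With AdV-IL4d2 the log2 difference of Tfec was 0.66 (95% interval 0.19 to 1.13), which did not pass after adjustment (limma adjusted p = 0.180). AdV-IL4 lungs exceeded AdV-IL4d2 lungs 2.03-fold (log2 difference 1.02 ± 0.22, limma adjusted p = 0.0374). That last call was lost when any 1 AdV-IL4 or AdV-IL4d2 array was left out, with adjusted p between 0.0501 and 0.116, and also without the filter on dim signals (adjusted p = 0.0760).

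Tfeb, the best studied activator of lysosomal genes, is controlled largely by phosphorylation and nuclear entry of the protein, which arrays do not measure. Tfeb signals were 191, 291 and 301 in AdV-IL4 lungs, 223, 362 and 212 in AdV-IL4d2 lungs, and 281, 280 and 245 in AdV-NULL lungs. The groups overlapped, and the log2 difference of Tfeb with AdV-IL4 was −0.06 with a 95% interval of −0.55 to 0.42. Mitf, which directs pigment cell, mast cell and osteoclast genes, had signals of 746, 871 and 698 in AdV-IL4 lungs, 719, 629 and 581 in AdV-IL4d2 lungs, and 521, 657 and 524 in AdV-NULL lungs. For Mitf all AdV-IL4 lungs were above all AdV-NULL lungs, yet the log2 difference of 0.43 ± 0.13 missed the threshold (limma adjusted p = 0.0556). Without AdV-NULL mouse 2 it passed (adjusted p = 0.0312), as it did with probe sets averaged per gene (0.0448).

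**Figure D2:**
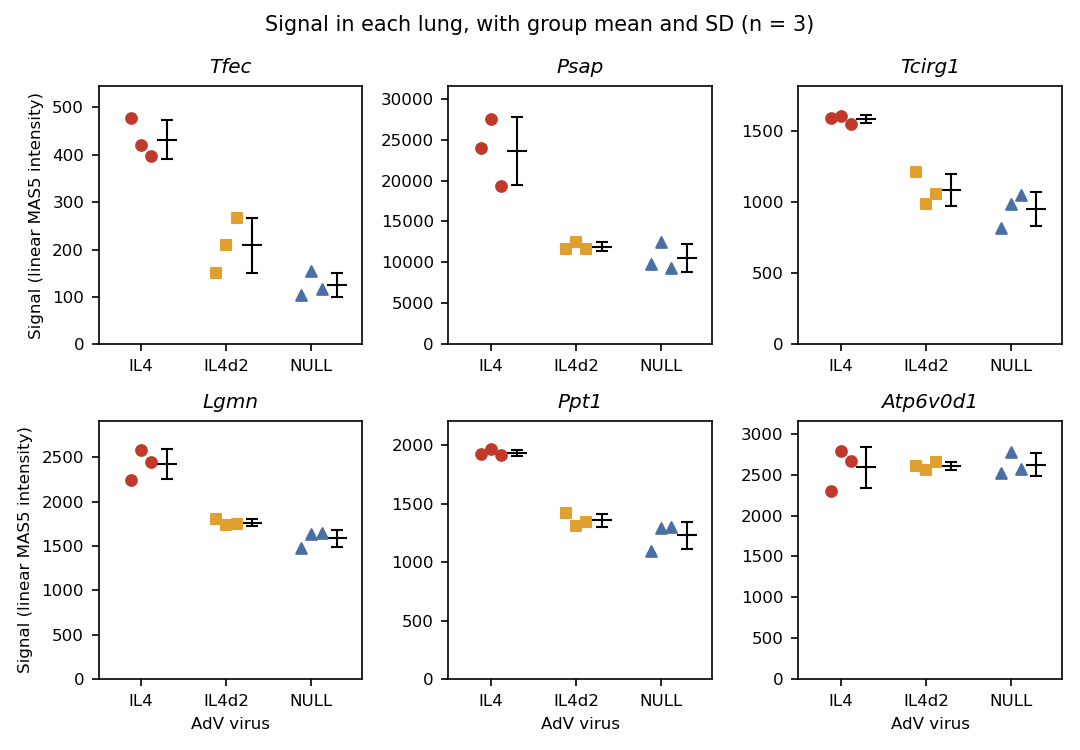
Linear MAS5 signal (y axis, from 0) of 6 genes in each lung, with virus on the x axis; the bar beside each group is the mean with its SD (n = 3). For Tfec, Psap, Tcirg1, Lgmn and Ppt1 all AdV-IL4 lungs lie above all other lungs, while for Atp6v0d1 the 3 groups overlap.

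The promoters of these genes were searched for the E-boxes that MiT factors bind and for the spaced palindromes of STAT factors. RefSeq windows from 250 bases before to 50 bases after a start site (build GRCm38.p6) were found for 30 of the 36 genes. Each motif was counted on either strand, with N for any base. The core E-box CACGTG was present in 9 of 30 genes (30%), beside 8.09% of all 27025 genes with a window. It occurred in 2 of the 11 genes with a window that rose with AdV-IL4, and in 7 of the 18 that did not pass. The longer TCACGTGA, which contains the core, was present in 4 of the 30 genes (13.3%) beside 1.12% of all genes. Those 4 were Gla, Mcoln1, Atp6v0d1 and Atp6v1a, and none of them rose by the test. The full palindrome, TCACGTGA with a G before it and a C after it, was in 0 of the 30 genes beside 0.37% of all genes. The variant TCATGTGA was in 4 of 30, beside 1.15% of all genes. For STAT factors, TTC and GAA with 4 bases of any kind between them, the spacing that STAT6 is known to prefer, were in 2 of 30 genes, Tfec and Tfeb, beside 8.01% of all genes. The same triplets with 3 bases between them (TTCNNNGAA) were in 0 of 30 beside 9.55%. A match describes letters in the window and is not evidence of binding.

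The stretches below show these matches in capitals, each read 5′ to 3′ on the strand of its gene. Glb1 and Lgmn are the genes that rose with AdV-IL4 and have a window that holds the E-box. Lgmn also has a start site further upstream, whose window holds none of the motifs. The printed Lgmn stretch may thus lie within a transcript from that site, and was kept short. Tfec is shown for its STAT-type palindrome, and Lamp1 and Mcoln1 for E-boxes in genes that did not pass the test; these 3 were chosen after their values were seen.
Glb1, chr9:114400951-114401050, plus strand, E-box at −48: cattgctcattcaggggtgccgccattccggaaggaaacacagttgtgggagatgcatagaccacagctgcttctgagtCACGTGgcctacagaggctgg
Lgmn, chr12:102439124-102439153, minus strand, E-box at −49: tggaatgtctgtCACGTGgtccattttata
Tfec, chr6:16898617-16898691, minus strand, palindrome at −200: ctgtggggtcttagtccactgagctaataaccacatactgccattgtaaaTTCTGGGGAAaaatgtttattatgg
Lamp1, chr8:13159061-13159160, plus strand, E-boxes at −61, −45, −28 and −15: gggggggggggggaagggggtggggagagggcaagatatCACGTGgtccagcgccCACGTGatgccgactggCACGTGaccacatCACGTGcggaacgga
Mcoln1, chr8:3500396-3500495, plus strand, E-box at −71 and longer motif at −46: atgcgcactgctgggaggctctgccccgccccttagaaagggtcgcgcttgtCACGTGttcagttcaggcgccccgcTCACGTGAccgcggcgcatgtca
Positions are counted from the annotated start site of the window shown, with negative values before it.

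The soluble enzymes and activators held most of the calls, with 8 of 15 higher in AdV-IL4 lungs than in AdV-NULL lungs, beside 6.34% of all genes. Of the 15, 0 were lower, and the median log2 difference was 0.48. Psap, the precursor of the saposins that present sphingolipids to their hydrolases, changed most. Psap signals were 23964, 27539 and 19294 in AdV-IL4 lungs, 11600, 12509 and 11670 in AdV-IL4d2 lungs, and 9862, 12521 and 9325 in AdV-NULL lungs. The lowest AdV-IL4 lung was thus above the highest of the other 6. Psap rose 2.23-fold with AdV-IL4 (log2 difference 1.15 ± 0.13, limma adjusted p = 0.000343), and its second probe set gave 1.07. With AdV-IL4d2 the log2 difference of Psap was 0.19, with a 95% interval of −0.11 to 0.48. Psap and Tfec were the only called genes whose AdV-IL4 difference stayed positive under each of the scalings tried.

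Ppt1 and Lgmn followed the same order of groups. Ppt1, which removes palmitate from proteins and is lost in infantile neuronal ceroid lipofuscinosis, had signals of 1923, 1964 and 1918 in AdV-IL4 lungs, 1418, 1306 and 1346 in AdV-IL4d2 lungs, and 1095, 1290 and 1301 in AdV-NULL lungs. It rose 1.57-fold with AdV-IL4 (log2 difference 0.65 ± 0.09, limma adjusted p = 0.00118), and its AdV-IL4 lungs hardly differed among themselves. Lgmn, the asparagine-specific protease legumain that also matures other lysosomal proteases, had signals of 2246, 2579 and 2444 in AdV-IL4 lungs, 1807, 1738 and 1750 in AdV-IL4d2 lungs, and 1476, 1639 and 1649 in AdV-NULL lungs. Lgmn rose 1.52-fold with AdV-IL4 (log2 difference 0.60 ± 0.09, limma adjusted p = 0.00136). In both genes the AdV-IL4d2 lungs all lay above the AdV-NULL lungs as well, by a log2 difference of 0.14 for Ppt1 (adjusted p = 0.516) and 0.15 for Lgmn (adjusted p = 0.460), neither of which passed.

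The glycosidases that rose take sugars off glycoproteins and glycolipids. Hexa, the alpha subunit of beta-hexosaminidase, had signals of 4543, 5071 and 4640 in AdV-IL4 lungs, 3631, 3637 and 3739 in AdV-IL4d2 lungs, and 2854, 3645 and 3257 in AdV-NULL lungs. Its AdV-IL4 lungs were all above the others, a 1.46-fold rise over AdV-NULL (log2 difference 0.55 ± 0.09, limma adjusted p = 0.00392). Man2b1, the lysosomal alpha-mannosidase, had signals of 2310, 2314 and 2267 in AdV-IL4 lungs, 1696, 1878 and 1829 in AdV-IL4d2 lungs, and 1475, 1791 and 1663 in AdV-NULL lungs. It rose 1.40-fold (0.48 ± 0.09, limma adjusted p = 0.00635), but a second, dimmer probe set of Man2b1 gave −0.05, and the mean of both did not pass (adjusted p = 0.140).

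Glb1 and Gusb were less stable. Glb1, the acid beta-galactosidase that cleaves gangliosides and keratan sulfate and whose E-box is printed above, had signals of 977, 807 and 705 in AdV-IL4 lungs, 621, 757 and 621 in AdV-IL4d2 lungs, and 590, 504 and 563 in AdV-NULL lungs. It rose 1.48-fold over AdV-NULL (0.56 ± 0.14, limma adjusted p = 0.0208), while its AdV-IL4 and AdV-IL4d2 lungs overlapped. The call was lost without AdV-IL4 mouse 1 (adjusted p = 0.0673) and without AdV-NULL mouse 2 (adjusted p = 0.0637). Gusb, the beta-glucuronidase often used as a reference gene in PCR, had signals of 1585, 1569 and 1387 in AdV-IL4 lungs, 1225, 1044 and 1267 in AdV-IL4d2 lungs, and 964, 1218 and 842 in AdV-NULL lungs. It rose 1.51-fold (0.59 ± 0.13, limma adjusted p = 0.0152), and the call was lost without AdV-NULL mouse 1 or AdV-NULL mouse 3 (adjusted p = 0.0541 and 0.0543).

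Lipa, the acid lipase that frees cholesterol and fatty acids from lipoprotein lipids, had signals of 1690, 1829 and 1851 in AdV-IL4 lungs, 1483, 1542 and 1582 in AdV-IL4d2 lungs, and 1308, 1323 and 1304 in AdV-NULL lungs. In this brightest probe set the 3 groups did not overlap and stood in the order AdV-IL4, AdV-IL4d2, AdV-NULL. In the other 2 probe sets AdV-IL4d2 and AdV-NULL lungs overlapped, with log2 differences of −0.03 and −0.07. Lipa rose 1.36-fold with AdV-IL4 (0.44 ± 0.08, limma adjusted p = 0.00546), in each of its 3 probe sets, while with AdV-IL4d2 the log2 difference of 0.22 did not pass (adjusted p = 0.218).

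The remaining 7 soluble members did not pass the test in any comparison with the brightest probe set and all arrays. Gla, the alpha-galactosidase A that is lost in Fabry disease, came closest: its signals were 284, 361 and 246 in AdV-IL4 lungs, 133, 144 and 199 in AdV-IL4d2 lungs, and 188, 195 and 139 in AdV-NULL lungs. No AdV-IL4 lung overlapped the others, but this dim probe set varied widely, and the log2 difference of 0.72 had an adjusted p of 0.0572 by limma. Npc2, the soluble carrier that hands cholesterol to Npc1, gave nearly equal log2 differences with AdV-IL4 (0.30, limma adjusted p = 0.0738) and with AdV-IL4d2 (0.28, adjusted p = 0.214). Its AdV-IL4 difference passed with the mean of its probe sets (0.42, adjusted p = 0.0131), without AdV-NULL mouse 2 (0.39, adjusted p = 0.0233) and with the mouse number as a replicate block (adjusted p = 0.0211). The sialidase Neu1 had a log2 difference of 0.32 with AdV-IL4 and the tripeptidyl peptidase Tpp1 one of 0.17. The glycogen-splitting Gaa gave 0.12 in its brightest probe set and 0.41 in the other, where the AdV-IL4 lungs lay above the AdV-NULL lungs (adjusted p = 0.110). Negative values were found for the sulfatase Galns (−0.08) and the acid ceramidase Asah1 (−0.10). Among the soluble members, dimmer probe sets differed in call from those given for Gusb (0.56, adjusted p = 0.120), for 1 of the 2 others of Ppt1 (0.62, adjusted p = 0.151) and for 1 of the 3 others of Npc2, which rose (0.46, limma adjusted p = 0.0123). The 15 soluble members thus had unequal values, with Psap at one end and Asah1 at the other.

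Of the 5 membrane proteins, 1 rose with AdV-IL4, beside 6.34% of all genes. Npc1, which moves cholesterol out of the lysosome, had signals of 1595, 1892 and 1578 in AdV-IL4 lungs, 1346, 1304 and 1323 in AdV-IL4d2 lungs, and 1154, 1033 and 1184 in AdV-NULL lungs. Like Lipa, it showed 3 groups without overlap. Npc1 rose 1.49-fold with AdV-IL4 (0.58 ± 0.10, limma adjusted p = 0.00352), and its log2 difference with AdV-IL4d2 was 0.24 (adjusted p = 0.287). Lamp1, a main glycoprotein of the lysosomal membrane with 4 E-boxes in the window printed above, had signals of 19305, 19310 and 17295 in AdV-IL4 lungs, 15099, 16467 and 15940 in AdV-IL4d2 lungs, and 14121, 17481 and 14809 in AdV-NULL lungs. One AdV-NULL lung reached into the AdV-IL4 range, and the log2 difference of 0.27 did not pass (limma adjusted p = 0.0890), except without AdV-NULL mouse 2 (0.36, adjusted p = 0.0238). Lamp2 gave 0.24, the calcium channel Mcoln1 0.22, and Scarb2, which carries glucocerebrosidase to the lysosome, 0.15, each in its brightest probe set. The dimmer probe sets of Lamp2 gave 0.003, 0.08 and 0.12, and those of Mcoln1 0.01 and 0.09. With AdV-IL4d2 a dim Mcoln1 probe set gave −0.47, which did not pass (limma adjusted p = 0.252). By brightest probe sets, Scarb2 was the 1 membrane gene of the 5 with a higher value for AdV-IL4d2 (0.19) than for AdV-IL4. That difference between forms was −0.04 (limma adjusted p = 0.841). The other Scarb2 probe set had the opposite order, with 0.27 for AdV-IL4 and 0.17 for AdV-IL4d2. A dimmer Lamp2 probe set gave 0.08 for AdV-IL4 and 0.10 for AdV-IL4d2.

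Of 12 measured proton pump genes 4 were higher in AdV-IL4 than in AdV-NULL lungs on the authors' scaling, beside 6.34% of all genes. Of the 12, 0 were lower, and the median log2 difference was 0.26. With poly-A controls the differences of all 4 turned negative. In the V0 sector, Tcirg1 changed most. It encodes the a3 subunit, the form that osteoclasts and macrophages use for acid secretion and for lysosomes. Tcirg1 signals were 1592, 1606 and 1552 in AdV-IL4 lungs, 1208, 988 and 1055 in AdV-IL4d2 lungs, and 820, 988 and 1046 in AdV-NULL lungs. The AdV-IL4 lungs lay close together and above all others, a 1.66-fold rise over AdV-NULL (log2 difference 0.73 ± 0.11, limma adjusted p = 0.00191). Atp6v0a1, which encodes the a1 form of the same subunit, had a log2 difference of 0.17 with AdV-IL4 (adjusted p = 0.545) and of −0.26 with AdV-IL4d2 (adjusted p = 0.499). Atp6v0b, a proteolipid of the rotor, gave 0.38 (adjusted p = 0.178). It passed without AdV-IL4 mouse 3, at 0.59 (adjusted p = 0.0298), and with the mean of its probe sets, at 0.34 (adjusted p = 0.0491). Atp6v0d1, the widely expressed d subunit, gave −0.02 with a 95% interval of −0.22 to 0.17.

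Of the accessory proteins, Atp6ap2, also known as the prorenin receptor and needed to assemble the pump, had signals of 10178, 9880 and 9469 in AdV-IL4 lungs, 8389, 7569 and 7935 in AdV-IL4d2 lungs, and 7014, 8261 and 7382 in AdV-NULL lungs. Its AdV-IL4 lungs were above all others, and it rose 1.31-fold (0.38 ± 0.08, limma adjusted p = 0.0138) in each of its 3 probe sets. Without AdV-NULL mouse 1 the call was lost (adjusted p = 0.0602). Atp6ap1 had a log2 difference of 0.28 and did not pass (adjusted p = 0.245).

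In the V1 sector 2 of 6 genes rose with AdV-IL4, beside 6.34% of all genes, both with calls that single arrays decided. Atp6v1b2, the B2 subunit that shares the nucleotide sites with subunit A, had signals of 2132, 2006 and 2121 in AdV-IL4 lungs, 1830, 1440 and 1549 in AdV-IL4d2 lungs, and 1515, 1692 and 1509 in AdV-NULL lungs. It rose 1.33-fold (0.41 ± 0.10, limma adjusted p = 0.0242), and its call was lost without AdV-IL4 mouse 1, AdV-IL4 mouse 3, AdV-NULL mouse 1 or AdV-NULL mouse 3, with adjusted p between 0.0601 and 0.0826. Atp6v1c1, the C1 subunit that links the stalks of both sectors, had signals of 4099, 4345 and 3843 in AdV-IL4 lungs, 3186, 3537 and 3181 in AdV-IL4d2 lungs, and 3060, 3320 and 3305 in AdV-NULL lungs. It rose 1.27-fold (0.34 ± 0.08, limma adjusted p = 0.0229), but its 2 dimmer probe sets gave 0.07 and 0.11 and were not called. The call of Atp6v1c1 was lost without AdV-IL4 mouse 2, AdV-NULL mouse 1 or AdV-NULL mouse 3, with adjusted p between 0.0501 and 0.0878. The catalytic subunit gene Atp6v1a had a log2 difference of 0.24 (adjusted p = 0.0961), and Atp6v1e1, Atp6v1d and Atp6v1h gave 0.02, −0.01 and −0.11. Dimmer probe sets differed in sign for 3 of these subunits, with 0.01 for Atp6v1d, −0.15 for Atp6v1e1 and 0.20 for Atp6v1h, and in call for Atp6v1b2 (0.30, adjusted p = 0.113). Subunits of one complex thus had unequal values, with Tcirg1 at one end and Atp6v1h at the other.

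**Figure D3:**
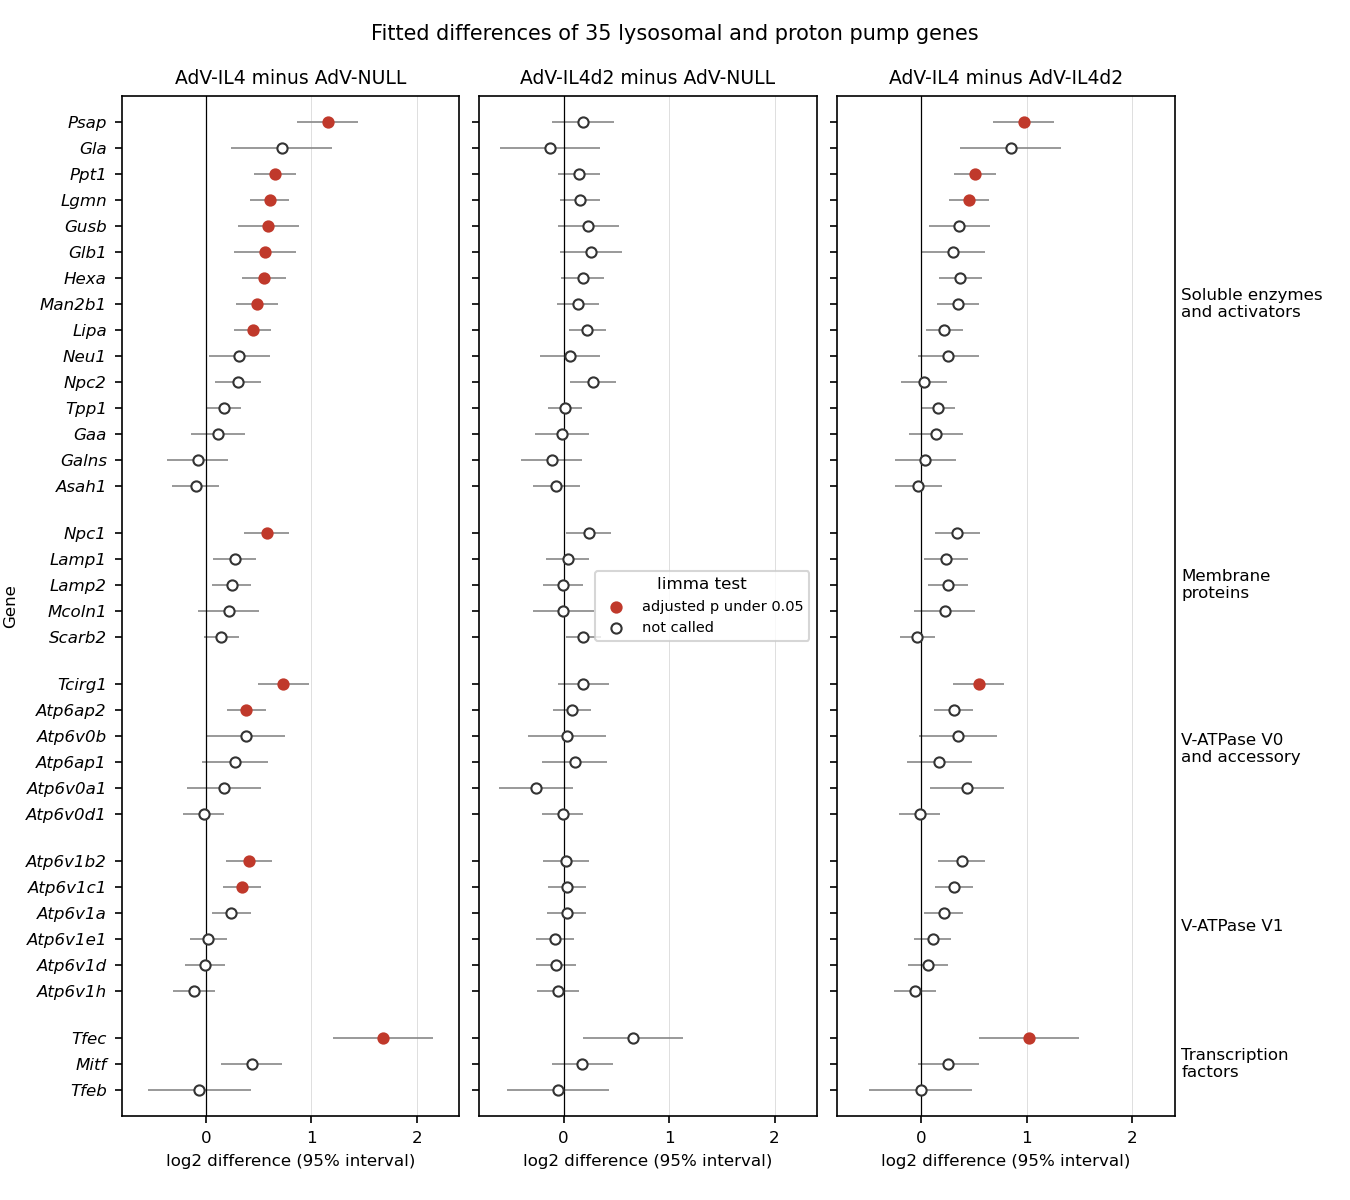
Log2 differences (x axis) with 95% intervals for the 35 genes (y axis, by role) on the authors' scaling. Filled circles passed limma's test after adjustment: 14 in AdV-IL4 minus AdV-NULL, 0 in AdV-IL4d2 minus AdV-NULL and 5 in AdV-IL4 minus AdV-IL4d2; scaling to poly-A controls turned 12 of the 14 and 4 of the 5 negative.

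When AdV-IL4 and AdV-IL4d2 lungs were compared directly, 5 genes differed. Il4 signal also differed between these lungs, with means of 338 ± 39.1 and 872 ± 343. The form and the amount of the cytokine transcript thus cannot be told apart. Psap was 1.96-fold higher in AdV-IL4 lungs (log2 difference 0.97 ± 0.13, limma adjusted p = 0.00430), and this call held with any 1 of the 9 arrays left out. Ppt1 was 1.42-fold higher (0.51 ± 0.09, adjusted p = 0.0170), Tcirg1 1.46-fold (0.55 ± 0.11, adjusted p = 0.0318) and Lgmn 1.37-fold (0.45 ± 0.09, adjusted p = 0.0241), beside Tfec given above. For Ppt1 the call was lost without AdV-IL4 mouse 2, AdV-IL4d2 mouse 2 or AdV-IL4d2 mouse 3, with adjusted p between 0.0546 and 0.0800. For Lgmn it was lost without AdV-IL4 mouse 2, AdV-IL4 mouse 3 or any AdV-IL4d2 mouse (adjusted p between 0.0604 and 0.105). For Tcirg1 it was lost without any 1 AdV-IL4 mouse, AdV-IL4d2 mouse 2 or AdV-IL4d2 mouse 3 (adjusted p between 0.0638 and 0.126). A further 9 genes that rose with AdV-IL4 over AdV-NULL did not pass between the forms, and their differences ran from 0.22 for Lipa to 0.38 for Atp6v1b2. With the mean of all probe sets of a gene Lipa passed at 0.46 (adjusted p = 0.0166) and Atp6v1b2 at 0.43 (adjusted p = 0.0273), and 1 of the 3 probe sets of Lipa passed by itself (0.47, adjusted p = 0.0392). Hexa passed without AdV-NULL mouse 2 (0.37, adjusted p = 0.0487). Under scaling to hybridisation controls 1 of the 35 was called higher between the forms (Psap) and 4 lower, and under scaling to poly-A controls 0 higher and 32 lower. In 18 of the 35 genes all AdV-IL4 lungs were above all AdV-IL4d2 lungs, beside 11.1% of all genes. The difference was positive in 30 of the 35, beside 46.4% of all genes, and 19 had an unadjusted p under 0.05, beside 18.5%.

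With AdV-IL4d2 the highest positive differences from AdV-NULL after Tfec were those of Npc2 (0.28), Glb1 (0.26), Npc1 (0.24), Gusb (0.23) and Lipa (0.22), none of which passed, and the lowest value was that of Atp6v0a1 (−0.26). Of the 35 values 23 were positive, beside 49.8% of all genes, and 6 genes had all AdV-IL4d2 lungs above all AdV-NULL lungs, beside 11.4% of all genes. On the authors' scaling the intervals limit what was missed with AdV-IL4d2 for some of the genes that rose with AdV-IL4, but not for all. For Psap the upper bound with AdV-IL4d2 was 0.48 (log2) and for Tcirg1 0.43, below their AdV-IL4 values of 1.15 and 0.73. For Glb1, Gusb and Lipa the upper bounds were 0.55, 0.52 and 0.40, close to their AdV-IL4 values of 0.56, 0.59 and 0.44. A rise near that with AdV-IL4 could thus have been missed in these genes.

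**Figure D4:**
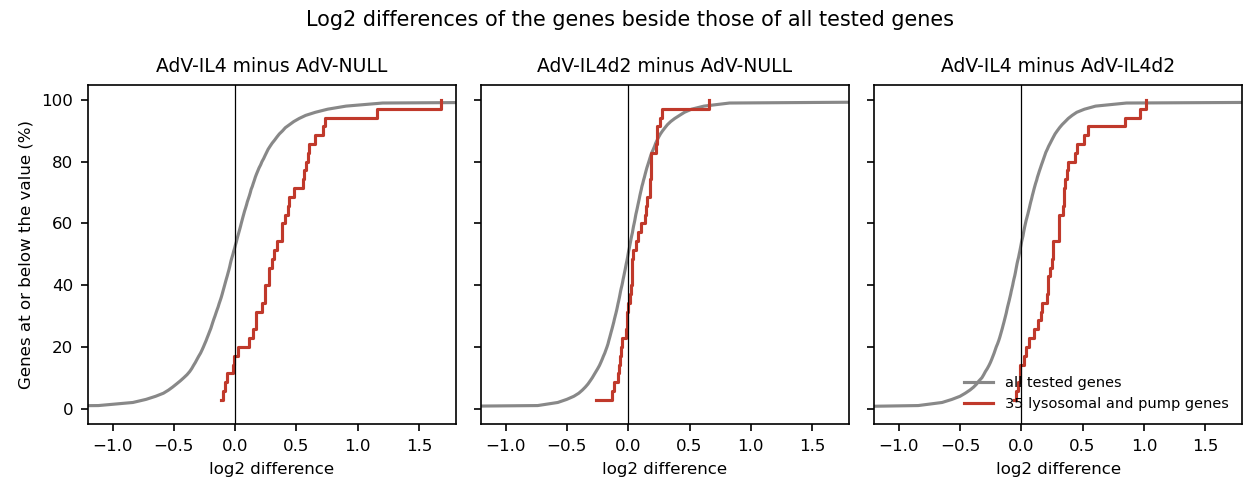
Cumulative share of genes (y axis, %) at or below each log2 difference (x axis, shown from −1.2 to 1.8) for the 35 genes, as steps, and for all tested genes, as a smooth line, on the authors' scaling. The steps lie right of the line for AdV-IL4 minus AdV-NULL (medians 0.32 and −0.02) and for AdV-IL4 minus AdV-IL4d2 (0.26 and −0.02), and near it for AdV-IL4d2 minus AdV-NULL (0.04 and 0.00).

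Scaling to added controls moves all genes of an array alike, and so moved the 35 genes together with the rest. In AdV-IL4 against AdV-NULL the median log2 difference of the 35 genes was −0.11 with hybridisation controls, where that of all genes was −0.45, and −0.45 with poly-A controls, where that of all genes was −0.78. The poly-A controls had mean log2 signals of 10.48 to 11.12 on AdV-IL4 arrays, 9.68 to 9.98 on AdV-IL4d2 arrays and 10.05 to 10.24 on AdV-NULL arrays. The hybridisation controls had 12.62 to 13.18 on AdV-IL4 arrays, 12.22 to 12.56 on AdV-IL4d2 arrays and 12.35 to 12.62 on AdV-NULL arrays. AdV-IL4 arrays were thus above all others for the poly-A controls, while for the hybridisation controls AdV-IL4 mouse 3 was level with AdV-NULL mouse 2. The part of this in the result was not otherwise tested.

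Other genes of the lysosome, outside the 35, were counted the same way on the authors' scaling, and of those named here that rose only Acp5 and Gpnmb also passed as higher under both scalings to added controls. Of 27 further hydrolases and activators 5 rose and 0 fell, with a median log2 difference of 0.15. They were led by Acp5, the tartrate-resistant acid phosphatase of osteoclasts and activated macrophages, with signals of 1312 to 1563 in AdV-IL4 lungs, 570 to 735 in AdV-IL4d2 lungs and 333 to 594 in AdV-NULL lungs. Acp5 rose 2.96-fold with AdV-IL4 (limma adjusted p = 0.000325), and Pla2g15, a lysosomal phospholipase, rose 1.48-fold. Of 28 further membrane proteins 6 rose and 1 fell, with a median of 0.14. Gpnmb, a glycoprotein of macrophages and melanocytes that MITF is known to activate, rose 5.40-fold to a mean of 2209 ± 327 in AdV-IL4 lungs, against 395 ± 42.1 in AdV-NULL lungs (SD, n = 3 each, limma adjusted p = 0.000198). In AdV-IL4d2 lungs Gpnmb averaged 976 ± 403, a difference that did not pass (adjusted p = 0.0516). Cd68, also counted among the macrophage markers, rose 2.30-fold, and Laptm5, a membrane protein of blood cell lysosomes, rose 1.86-fold.

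Of 13 further V-ATPase genes 2 rose (Atp6v0d2 and Dmxl1) and 1 fell (Oxr1) with AdV-IL4. Their median log2 difference was −0.02, with positive values in 6 of the 13. Atp6v0d2, the d subunit form of osteoclasts and macrophages, rose 2.01-fold to a mean of 1304 ± 336, against 631 ± 68.8 in AdV-NULL lungs (limma adjusted p = 0.00699), and averaged 564 ± 141 in AdV-IL4d2 lungs. It was 2.27-fold higher in AdV-IL4 than in AdV-IL4d2 lungs (adjusted p = 0.00967), a call lost without AdV-IL4d2 mouse 3 (adjusted p = 0.0581). The forms of the a and d subunits named for macrophages and osteoclasts, Tcirg1 and Atp6v0d2, thus rose on the authors' scaling. Log2 differences of 0.17 for Atp6v0a1 and −0.02 for Atp6v0d1 did not pass. Whether the forms of a subunit differed from each other in their change was not tested. In AdV-IL4 against AdV-IL4d2 lungs Atp6v0a1 gave 0.44 (limma adjusted p = 0.201), beside 0.55 for Tcirg1, and Atp6v0d1 gave −0.01. With poly-A controls the differences from AdV-NULL were −0.046 for Tcirg1 and 0.228 for Atp6v0d2, and neither passed. Of 21 genes that sort enzymes to the lysosome 2 rose, namely Gnptab, which makes the mannose 6-phosphate tag (1.43-fold), and Grn, the precursor of the granulins (1.43-fold), and 0 fell. Of 22 genes that control TFEB and its relatives 1 rose (Flcn, 1.25-fold) and 1 fell (Ppp3cb, a log2 difference of −0.31), and both calls were lost without AdV-IL4 mouse 1, AdV-IL4 mouse 2, AdV-NULL mouse 1 or AdV-NULL mouse 2, among others. Other calls that were kept in 5 or fewer of the 9 fits with 1 array left out were those of Naaa, Dpp7, Hgsnat, Slc29a3, Slc36a1 and Oxr1. Over these 5 lists 16 of 111 genes rose with AdV-IL4 (14.4%) and 3 fell (2.7%), beside 6.34% and 6.63% of all genes, and the counts of 2 of 21 and 1 of 22 lie near that background. With AdV-IL4d2 0 genes of the 5 lists passed limma's test against AdV-NULL, and 10 of the 111 had an unadjusted p under 0.05 (9.01%), below the 15.5% of all genes.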

How the data were processed

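Total RNA of 9 whole lungs went onto Affymetrix 3′ arrays, 1 per mouse. Per the labels' protocols, 200 ng of Trizol-extracted RNA was labelled with the 3′ IVT Express kit. Expression Console 2.0, MAS5 and GCOS are listed in the submitters' processing notes. The authors deposited linear signal intensities of 45101 probe sets. Their 2% trimmed mean was about 500.002 on every array, so all arrays had been scaled to the same level and a general rise or fall of transcripts would be hidden. The number of arrays limits the precision.

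The platform annotation gives a single symbol to 34958 probe sets and several to 932, and 9211 are unnamed here. A current record was found for 34754, and 0 changed name. The transform was log2(signal + 16), which understates changes of dim genes. Tested were probe sets brighter than their array's median on 3 or more of the 9 arrays, without the 64 control probe sets. The model held 1 mean per group over all 9 arrays (lmFit and eBayes with trend, limma 3.58.1, R 4.3.3, 6 residual degrees of freedom). Tests were two-sided, with Benjamini-Hochberg adjustment per comparison and a threshold of 0.05. The brightest tested probe set by mean log2 signal stood for its gene, and levels of different genes were not compared. An error given with a log2 difference is its standard error. The scripts were tested on simulated data.

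The members and lists were chosen with earlier results of these data known. Named are all members called, the 3 transcription factors, up to 4 called genes of each other pathway list and up to 3 of each marker list, while other members are given by values or ranges. List genes named beyond that were chosen after their values were seen. Alternatives covered the pseudocount, filter, scaling, trend, samples in the fit, replicate block, probe set choice and left-out arrays. Promoter sequences are RefSeq's (GRCm38.p6).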

Additional observations from a re-analysis of the deposited data

Results flagged for a closer look

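Each of 5 genes differed between AdV-IL4 and AdV-IL4d2 lungs by the test of the difference itself. Il4 signal differed between these lungs too, so the form and the amount of the cytokine transcript cannot be told apart. The log2 difference (AdV-IL4 minus AdV-IL4d2) was 1.02 for Tfec, 0.97 for Psap, 0.55 for Tcirg1, 0.51 for Ppt1 and 0.45 for Lgmn, each on the authors' scaling. With single arrays left out, Psap kept its call in 9 of 9 fits, Ppt1 in 6, Lgmn and Tcirg1 in 4 each and Tfec in 3. Under scaling to poly-A controls the differences of all but Tfec turned negative, and under scaling to hybridisation controls that of Lgmn did. Groups of 3 lungs were not searched for outlying lungs.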

How the results depend on the processing

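The count of 14 higher members in AdV-IL4 against AdV-NULL held within 1.5 times for both other pseudocounts, both other filters, quantile normalization, eBayes without trend, the fit of only the compared groups, the replicate block and the mean of all probe sets. With 1 array left out it ran from 10 (without AdV-NULL mouse 1) to 16, while AdV-IL4d2 against AdV-NULL stayed at 0 to 0 and AdV-IL4 against AdV-IL4d2 ran from 1 to 6. Without both AdV-NULL mouse 1 and AdV-IL4 mouse 2 the counts were 7 and 2. Over all genes, leaving out 1 array gave 822 to 1349 calls in AdV-IL4 against AdV-NULL (1554 with all arrays), 74 to 223 in AdV-IL4d2 against AdV-NULL (151) and 75 to 300 in AdV-IL4 against AdV-IL4d2 (268), and leaving out both arrays gave 654, 100 and 162. The cause of these moves was not tested. In AdV-IL4 against AdV-IL4d2 the member count of 5 became 1 and the count of all genes 110 without trend, where AdV-IL4d2 against AdV-NULL gave 93, and no filter gave 158 genes.

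Scaling to added controls changed most, as the rescaling itself moves every gene of an array alike. With hybridisation controls 4 members (2 higher and 2 lower) and 3985 genes were called in AdV-IL4 against AdV-NULL and 4871 genes in AdV-IL4 against AdV-IL4d2. With poly-A controls 18 members (1 higher, 17 lower) and 9626 genes were called in AdV-IL4 against AdV-NULL, 293 genes in AdV-IL4d2 against AdV-NULL, and 32 members, all lower, and 11460 genes in AdV-IL4 against AdV-IL4d2. Of the 35 members 6 had negative values in AdV-IL4 against AdV-NULL on the authors' scaling, 23 with hybridisation controls and 33 with poly-A controls, and in AdV-IL4 against AdV-IL4d2 there were 5, 30 and 34. Among the 14 members called in AdV-IL4 against AdV-NULL the log2 differences that turned were, with hybridisation controls, those of Atp6ap2 (−0.062), Atp6v1b2 (−0.037) and Atp6v1c1 (−0.10), and with poly-A controls those of Hexa (−0.24), Glb1 (−0.21), Gusb (−0.19), Man2b1 (−0.30), Ppt1 (−0.13), Lipa (−0.34), Lgmn (−0.18), Npc1 (−0.20), Tcirg1 (−0.046), Atp6ap2 (−0.40), Atp6v1b2 (−0.38) and Atp6v1c1 (−0.44). Among the 5 called in AdV-IL4 against AdV-IL4d2 Lgmn turned to −0.049 with hybridisation controls, and Ppt1 (−0.54), Psap (−0.092), Lgmn (−0.60) and Tcirg1 (−0.50) turned with poly-A controls, where Mitf, not called as reported, was called lower (−0.78).

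Deviations of mice with the same number correlated at −0.069 to 0.116, and those of mice with different numbers at −0.133 to 0.132. In AdV-IL4 against AdV-IL4d2 the same-number pairs gave 0.116, 0.102 and 0.071, and the other pairs −0.089 to −0.013. Whether mice of the same number share more than a label was not tested. With the mouse number as a replicate block 3 members were called in AdV-IL4 against AdV-IL4d2 in place of 5, Tcirg1 (adjusted p = 0.0546) and Tfec (0.0513) no longer passing, while Mitf (0.0481) and Npc2 (0.0211) passed in AdV-IL4 against AdV-NULL.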
